A study of Mus musculus with 18 samples.

Results

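Long noncoding RNAs are transcripts with no known protein product, and 8 of them were followed here through regulatory T (Treg) cells of 6 mouse organs: Malat1, Neat1, Gas5, Snhg1, Snhg8, Snhg12, Kcnq1ot1 and Mir142hg. They were chosen by name and are 8 of the 55487 gene IDs in the deposited tables. All 8 symbols matched 1 gene ID each, and 7 of them were among the 16694 genes tested. The exception, Kcnq1ot1, stayed under 1 TPM (transcripts per 1000000, a share of a library's RNA) in every library.

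The libraries were made from the poly(A) RNA of Treg cells, the CD4 T cells that restrain immune responses and carry the transcription factor Foxp3. All mice were wild-type and received no treatment. The organs were peripheral blood, bone marrow, spleen, lymph node, liver and lung, with 3 libraries each and 18 in all. The labels give no sorting gate, age, sex or number of animals, and do not say whether the replicates were separate animals, so the p-values measure only the spread between these libraries.

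Malat1 and Neat1 are long nuclear transcripts from neighbouring genes. Malat1 accumulates in nuclear speckles, where splicing factors are stored, and Neat1 is the scaffold of paraspeckles, nuclear bodies that hold RNA-binding proteins. Neat1 is annotated with 4 transcripts of 711 to 20771 bases. The values here are per gene, so they do not give the level of any single Neat1 transcript. Gas5, Snhg1, Snhg8 and Snhg12 are host genes of small nucleolar RNAs (snoRNAs), which guide the chemical modification of ribosomal RNA. The snoRNAs are cut from introns, and the spliced host transcript is exported and, for several hosts, destroyed by nonsense-mediated decay during translation. Kcnq1ot1 is the antisense RNA that silences an imprinted domain in cis, and Mir142hg is the host gene of the blood-cell microRNA miR-142.

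In coordinates of GRCm38 (mm10) from GENCODE M21, Malat1 (ENSMUSG00000092341) lies at chr19:5795690-5802672 and Neat1 (ENSMUSG00000092274) at chr19:5824708-5845478, both on the minus strand, with 22036 bases from the 3′ end of Neat1 to the start of Malat1. Gas5 (ENSMUSG00000053332) lies at chr1:161034422-161038539 on the plus strand, and 10 annotated snoRNA genes sit inside it. Snhg1 (ENSMUSG00000108414) lies at chr19:8723475-8726443 on the plus strand with 8 snoRNA genes inside it. Snhg8 (ENSMUSG00000104960) lies at chr3:123507552-123508404 on the minus strand with 1 snoRNA gene, Snora24. Snhg12 (ENSMUSG00000086290) lies at chr4:132308623-132311024 on the plus strand with 5. All 24 of these snoRNA genes were listed at 0 TPM in all 18 libraries. The protein-coding gene Zbtb37, listed at up to 24.2 TPM, overlaps the 5′ end of Gas5 on the opposite strand, and the part of its reads in the value of Gas5 was not tested. Kcnq1ot1 (ENSMUSG00000101609) lies at chr7:143203458-143296549 on the minus strand, inside the protein-coding gene Kcnq1 of the opposite strand. Mir142hg (ENSMUSG00000084796) lies at chr11:87755577-87757270 on the plus strand.

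Sequences of 3 kinds are shown for these genes. The first is the end of Malat1, shown because the annotated transcript holds a run of A that a poly(dT) primer can meet. The 6983-base transcript holds its longest run of A, 12 bases in capitals, at transcript positions 6674 to 6685. It is known as the tract that folds into a triple helix with the U-rich stretches before it. The 112 bases shown lie at chr19:5795968-5796079 and are written as DNA of the minus strand.
Malat1 A-rich tract: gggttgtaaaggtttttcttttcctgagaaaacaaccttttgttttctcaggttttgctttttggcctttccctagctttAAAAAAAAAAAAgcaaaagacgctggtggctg

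The second kind is the start of the snoRNA hosts, shown because host genes as a class are known to begin with a terminal oligopyrimidine tract, a run of C and T that ties their translation to that of ribosomal protein mRNAs. The 60 bases shown hold 30 bases before and 30 from the RefSeq start (GRCm38.p6). Capitals mark a C followed by at least 4 pyrimidines whose first base lies within 10 bases of that start, searched on the strand of the gene only.
Gas5 start: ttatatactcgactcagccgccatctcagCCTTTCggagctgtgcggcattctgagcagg
Snhg8 start: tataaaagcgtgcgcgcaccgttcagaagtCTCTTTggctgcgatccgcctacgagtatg
Snhg12 start: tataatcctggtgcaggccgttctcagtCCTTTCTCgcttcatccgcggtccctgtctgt
Snhg1 start: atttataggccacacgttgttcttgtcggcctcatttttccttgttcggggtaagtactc

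Of the 5 RefSeq start windows of these hosts, 3 held such a run, 1 each for Gas5, Snhg8 and Snhg12. Snhg1 and the other Gas5 window held none in this window. Over all 32851 RefSeq windows of this length, 30.7% held one, and over 73 windows of ribosomal protein genes 56.2% did. The windows shown lie at chr1:161035136-161035195, chr3:123508307-123508366, chr4:132308648-132308707 and chr19:8723457-8723516 in the order printed.

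The third kind is the set of mature microRNAs of the miR-142 locus, shown because they lie outside the exons of Mir142hg that the tables count. The hairpin of miR-142 is at chr11:87756864-87756927, in the intron between the exons at 87755577-87755613 and 87757039-87757270. The sequences miR-142a-5p and miR-142a-3p lie on the plus strand, as Mir142hg does. The sequence miR-142b lies on the minus strand, so it is not part of the Mir142hg transcript. In the RefSeq mature sequences the seed, bases 2 to 8, is in capitals, and the 3 seeds differ.
miR-142a-5p: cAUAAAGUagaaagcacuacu
miR-142a-3p: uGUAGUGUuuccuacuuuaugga
miR-142b: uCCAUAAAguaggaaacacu

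The label of the cells was checked against their markers. Foxp3, Cd3e and Cd4 were present in all 18 libraries, Foxp3 at 85.4 to 240.3 TPM. Markers of other cells were present too. The summed level of 14 neutrophil and monocyte genes was 26610 to 27400 TPM in the blood libraries and 47580 to 47970 in bone marrow, against 38.27 to 88.85 in lymph node, and 8 platelet genes summed to 3085 to 3187 in blood against at most 82.39 elsewhere. The 8 erythroid genes summed to 10930 to 11970 TPM in liver, the highest of the organs, against 72.86 to 75.46 in lymph node. The 8 B cell genes summed to 3046 to 3218 in blood and 3094 to 3194 in spleen. The 8 plasma cell genes were highest in spleen (2113 to 2251). The part of these cells in the levels of the 8 RNAs was not tested. The sum of 20 general T cell genes was lowest in blood (3640 to 3736) and highest in lymph node (8853 to 8906). TPM is a share of a library's RNA and keeps no sequencing depth. The number of genes above 0 ranged from 14314 to 14408 in the liver libraries to 19633 to 19797 in those of bone marrow. In such bulk libraries, fewer cells of a type and less RNA per cell cannot be told apart.

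Together the 8 RNAs made up 0.133% of the TPM in lymph node and 0.231% in liver (means of 3 libraries). Over the 18 libraries Malat1 had a higher mean level than 98.8% of the tested genes, Gas5 than 98.0%, Neat1 than 97.5% and Snhg1 than 94.3%. Snhg12 and Mir142hg stood above 88.5% and 87.5% of the tested genes. Kcnq1ot1 stood at the bottom of the range, above 7.5%.

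**Figure D1:**
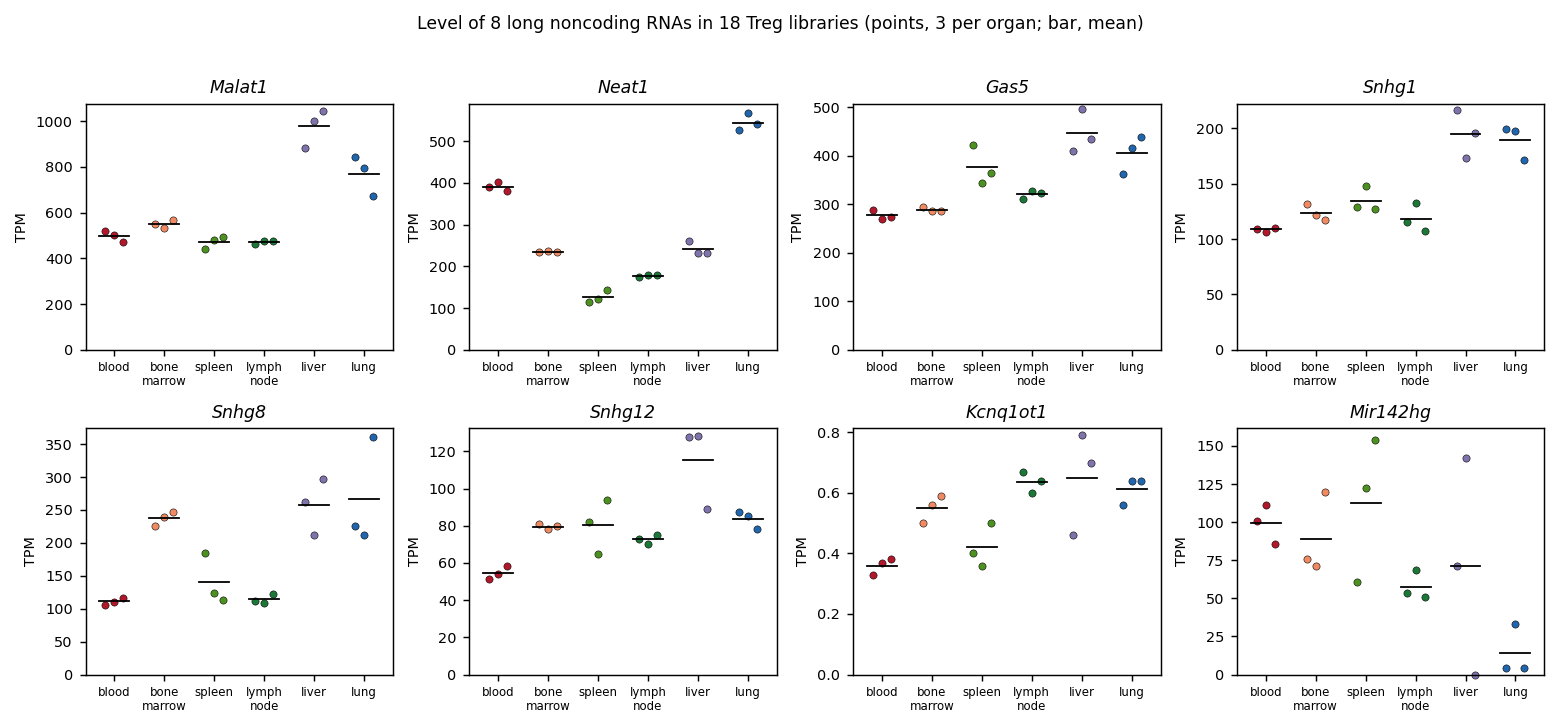
TPM (vertical axes, linear from 0) of the 8 long noncoding RNAs in each of the 18 Treg libraries, with 3 points per organ and a bar at their mean. On this scale Malat1 is highest in liver and lung, Neat1 in lung and blood, and Mir142hg spreads from 0 to 142 TPM within the liver libraries alone.

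An F test in limma asked of each gene whether its level differed among the 6 organs. It called 6 of the 7 tested RNAs at an adjusted p (Benjamini-Hochberg, over all tested genes) under 0.05, all but Mir142hg. Of all tested genes it called 68%, so a call by itself sets no gene apart in these data, and the order and size of the differences carry the description. All tests used log2(TPM + 1), and every difference below is on that scale.

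On TPM as deposited, Malat1 was highest in liver and lung. Its level was 883, 1001 and 1046 TPM in liver (977.0 ± 84.1, mean ± SD, n = 3) and 843, 794 and 673 TPM in lung (770.1 ± 87.7). All 6 of these libraries lay above all 12 others. The other organs were close to each other: 548, 534 and 567 TPM in bone marrow, 519.98, 500.3 and 474 TPM in blood, 465, 475 and 478 TPM in lymph node, and 440.5, 479 and 493 TPM in spleen. The ratio of the highest to the lowest organ mean, liver to spleen, was 2.07. Liver exceeded lung by 0.35 ± 0.08 (SE; adjusted p = 0.00231), and lung exceeded bone marrow by 0.48 ± 0.08 (adjusted p = 9.69e-05). None of the remaining neighbours in this order, bone marrow, blood, lymph node and spleen, differed from the next in the test (smallest adjusted p = 0.181). The difference between liver and lung was called on TPM as deposited but was 0.05 (adjusted p = 0.686) when the libraries were scaled to their T cell genes, and was not called in a fit of the 2 organs alone (0.145). With that scaling blood (scaled mean 814) was close to liver (819) and lung (795), and neither difference was called (adjusted p = 0.959 and 0.683).

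Against the lymphoid organs Malat1 was higher in liver and lung under both scalings, though by different amounts. Liver exceeded lymph node by 1.04 ± 0.08 (adjusted p = 6.16e-08) and spleen by 1.05 ± 0.08 (4.68e-08), and lung exceeded them by 0.70 in both cases (2.08e-06 and 1.98e-06). With the libraries scaled to T cell genes these values were 1.23 and 1.01 for liver and 1.18 and 0.96 for lung. A gene of the opposite strand, Gm37376 (chr19:5801941-5802393), is annotated inside Malat1 and was listed at 0 to 215 TPM, with 166, 168 and 215 TPM in spleen and 0 in all lymph node libraries. Whether strand was used in the authors' counting is not given in the sources used here, and the part of these reads in the value of Malat1 was not tested.

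Neat1 had the widest range of the nuclear pair and another order. It was highest in lung at 526, 567 and 540.4 TPM (544.5 ± 21.1) and next in blood at 389.5, 401 and 380.2 TPM (390.3 ± 10.6). Liver (260.3, 233 and 232 TPM) and bone marrow (233, 237 and 234 TPM) overlapped, lymph node followed at 174, 180.4 and 178 TPM, and spleen was lowest at 114, 122 and 144 TPM (126.4 ± 15.5). No other 2 organs overlapped in any library. The ratio of the lung mean to the spleen mean was 4.31.

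Each step of that order passed the test except the step from liver to bone marrow, which differed by 0.04 ± 0.07 (adjusted p = 0.706). Lung exceeded blood by 0.48 ± 0.07 (4.08e-05), blood exceeded liver by 0.69 (9.03e-07), bone marrow exceeded lymph node by 0.40 (0.000468) and lymph node exceeded spleen by 0.49 (0.000188). The 2 highest organs changed places with the libraries scaled to T cell genes, where blood exceeded lung by 0.18 (0.042) and bone marrow exceeded liver by 0.37 (0.00063). Lung exceeded lymph node by 1.61 ± 0.07 (4.34e-11) on TPM as deposited and by 2.10 (2.01e-12) in the scaled libraries. The neutrophil and monocyte markers given above were highest in bone marrow and far higher in blood than in lung, liver or lymph node. Their part in the level of Neat1 in blood or bone marrow was not tested.

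The ratio of Neat1 to Malat1 within a library is the same under every scaling of that library. It averaged 0.785 ± 0.031 in blood and 0.714 ± 0.09 in lung, with all 6 libraries above 0.62. It was 0.427 ± 0.015 in bone marrow, 0.376 ± 0.004 in lymph node, 0.268 ± 0.02 in spleen and 0.25 ± 0.039 in liver. The bone marrow libraries (0.413 to 0.443), the lymph node libraries (0.373 to 0.38) and those of spleen and liver (0.222 to 0.295) did not overlap. Liver, with the lowest mean ratio, and lung, with the second highest, shared a high level of Malat1.

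**Figure D2:**
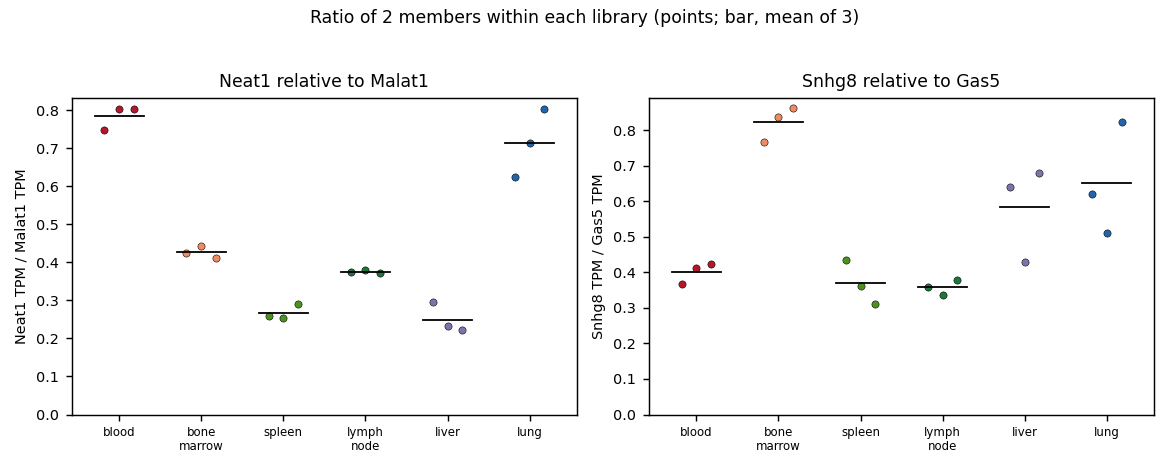
Ratio of the TPM of Neat1 to Malat1 (left) and of Snhg8 to Gas5 (right) within each of the 18 libraries, with a bar at the mean of the 3 libraries per organ. Neat1 reaches 0.785 of Malat1 in blood and 0.714 in lung but 0.25 in liver, and Snhg8 reaches 0.822 of Gas5 in bone marrow.

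The proteins of the 2 nuclear bodies were read from lists of 24 genes each, all of them tested. Between lymph node and lung, 17 of 24 paraspeckle genes were called, 5 of them higher in lung, against 42.3% of all tested genes. Pspc1, a core paraspeckle protein that binds Neat1, was among them with means of 56.97 TPM in lung and 25.9 TPM in lymph node (difference 1.08 ± 0.23, adjusted p = 0.0011). Tia1, a stress granule protein, was lower in lung (39.01 against 91.64 TPM; adjusted p = 9.99e-07). The paraspeckle list had a median of -0.27 (lung minus lymph node) beside -0.20 over all tested genes. With T cell scaling the split turned to 11 higher in lung and 4 lower, beside 26.5% and 12.4% of all tested genes. Pspc1 and Tia1 kept their directions.

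Of 24 nuclear speckle genes, 10 were lower and 6 higher in lung than in lymph node, beside 27.4% and 14.9% of all tested genes. With T cell scaling 4 were lower and 14 higher, beside 12.4% and 26.5%. Clk1, the kinase that phosphorylates SR splicing factors, averaged 994.4 TPM in lung, 921.0 TPM in liver and 441.9 TPM in lymph node. It exceeded lymph node by 1.16 ± 0.08 in lung (1.9e-08) and by 1.06 ± 0.08 in liver (1.71e-07). Sf3b1, a core splicing factor, exceeded lymph node by 0.86 ± 0.06 in lung (3.85e-09) and by 0.25 ± 0.06 in liver (0.00231). Luc7l3 fell by 0.94 in lung against lymph node (9.85e-07), with means of 61.27 and 118.0 TPM. The 12 protein-coding neighbours of Malat1 and Neat1 showed no shared rise. Between lymph node and lung, 4 were higher in lymph node and 1 in lung. Between lymph node and liver these were 3 and 1, beside 21.6% and 9.45% of all tested genes. The 1 gene higher in lung was Cdc42ep2 (0.99 against 0.053 TPM) and the 1 higher in liver was Ltbp3 (2.51 against 0.26 TPM). The split in lung was 2 and 2 with T cell scaling. Pola2, a DNA polymerase subunit, was higher in lymph node than in lung, at 35.14 against 11.41 TPM (adjusted p = 3.2e-06).

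On TPM as deposited, the 4 snoRNA hosts had their highest organ mean in liver or lung and their lowest in blood; with T cell scaling blood no longer lay below spleen and lymph node for any of them. Gas5 was the most abundant of them. Its level was 409.9, 496 and 436 TPM in liver (447.2 ± 44.2), 362, 416 and 439 TPM in lung and 422, 343 and 365 TPM in spleen. It was 311, 326 and 324 TPM in lymph node, 294, 286 and 286 TPM in bone marrow and 289, 269 and 274 TPM in blood (277.3 ± 10.6). Blood and bone marrow lay below all other libraries, while liver, lung and spleen overlapped. Under T cell scaling the order turned, and blood had the highest scaled mean (453, beside 419 in lung, 374.5 in liver and 236 in lymph node). The ratio of the liver mean to the blood mean was 1.61, the smallest range of the 7 tested RNAs. No 2 neighbouring organs in the order of Gas5 differed in the test, the closest being spleen and lymph node (0.23 ± 0.08, adjusted p = 0.0857).

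On TPM as deposited, Snhg1 split into a high and a low set of organs. It stood at 217, 173 and 196 TPM in liver (195.2 ± 21.7) and 199, 197 and 172 TPM in lung (189.3 ± 15.3). All 6 lay above the other 12 libraries, which ran from 107 to 148 TPM. Within that lower set were spleen (129, 148 and 127 TPM), bone marrow (132, 122 and 117 TPM), lymph node (115, 133 and 107 TPM) and blood (109, 107 and 109.7 TPM). The step between the sets, from lung to spleen, was 0.49 ± 0.10 (adjusted p = 0.00076), and no other step passed. Under T cell scaling blood left the lower set, with a scaled mean of 178 beside 164 in liver and 195.4 in lung.

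The gene next to Snhg1 is Slc3a2 (chr19:8706882-8723369, minus strand), which encodes the heavy chain of amino acid transporters in the cell membrane. Their starts lie 106 bases apart and point away from each other. On TPM as deposited, Slc3a2 was also higher in lung (299, 245 and 298 TPM) and liver (159, 179 and 184 TPM) than in the other organs, whose libraries ran from 54.7 to 95.97 TPM. Unlike Snhg1, it did not overlap between lung and liver. Against lymph node it was higher by 1.72 ± 0.08 in lung (adjusted p = 1.12e-10) and by 1.03 ± 0.08 in liver (1.54e-07), where Snhg1 was higher by 0.68 and 0.72. Both genes had their lowest mean in blood on TPM as deposited.

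**Figure D3:**
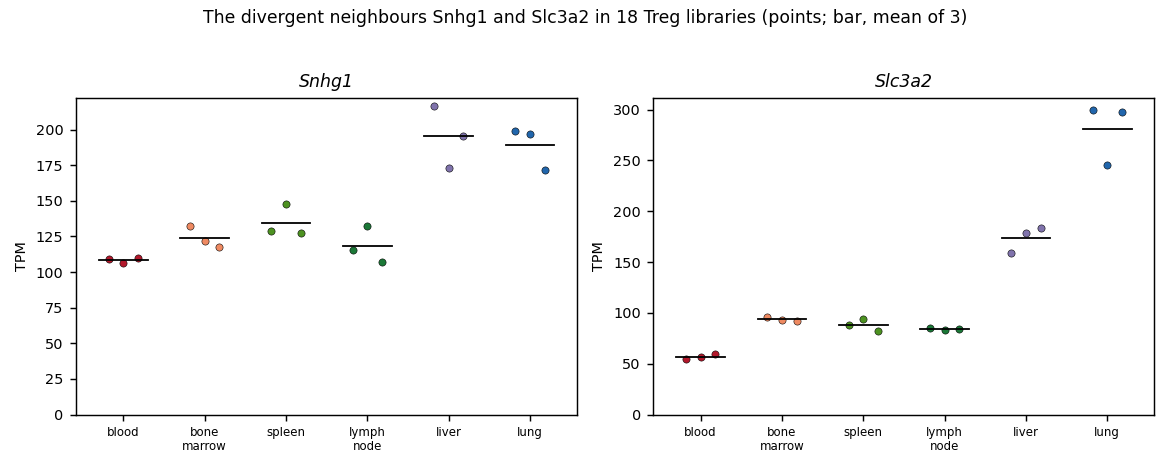
TPM (vertical axes, linear from 0) of Snhg1 (left) and its divergent neighbour Slc3a2 (right) in each library, with 3 points per organ and a bar at the mean. Snhg1 reaches similar levels in liver (195.2 TPM) and lung (189.3 TPM), whereas Slc3a2 rises from 173.8 TPM in liver to 280.7 TPM in lung.

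Snhg8 was the host whose level in bone marrow stood apart. It was 226, 239 and 247 TPM there (237.2 ± 10.7), against 263, 212 and 296 TPM in liver and 225, 212 and 361 TPM in lung (266.1 ± 82.7). It was 184, 124 and 114 TPM in spleen, 112, 109 and 122 TPM in lymph node and 106, 111 and 116 TPM in blood (111.0 ± 5.04). Bone marrow overlapped liver and lung and lay above all libraries of spleen, lymph node and blood. Bone marrow exceeded spleen by 0.78 ± 0.19 (adjusted p = 0.00577) and lymph node by 1.05 ± 0.19 (0.000548). The ratio of Snhg8 to Gas5 was 0.822 ± 0.049 in bone marrow, 0.651 ± 0.159 in lung, 0.583 ± 0.136 in liver and between 0.312 and 0.436 in all 9 libraries of blood, spleen and lymph node. Relative to Gas5, Snhg8 was thus at 0.768 or more in every bone marrow library.

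Snhg12, the least abundant of the 4 hosts, was on TPM as deposited highest in liver at 128, 129 and 89.2 TPM (115.2 ± 22.5) and lowest in blood at 51.4, 54.2 and 58.4 TPM (54.7 ± 3.51). Lung stood at 87.4, 85.1 and 78.4 TPM, spleen at 82.0, 65.1 and 93.9 TPM, bone marrow at 80.8, 78.1 and 79.7 TPM and lymph node at 73.1, 70.3 and 75.1 TPM. Liver replicate 3 lay below the other liver libraries and overlapped spleen. Liver exceeded lung by 0.44 ± 0.14 (adjusted p = 0.0191), a call lost without liver replicate 1 (0.0728), liver replicate 2 (0.0737) or lung replicate 3 (0.0616) and with T cell scaling (0.444), library weights (0.158) or the 2 organs alone (0.194). Lymph node exceeded blood by 0.41 ± 0.14 (0.0252), whereas with T cell scaling blood exceeded lymph node by 0.73 (0.000227).

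Liver and lung were then set against the 2 lymphoid organs for all 7 tested RNAs. In liver, 6 of 7 were higher than in lymph node, against 9.45% of all tested genes, and 31.1% of genes were called in either direction. The same 6 of 7 were higher in liver than in spleen (14% of all tested genes, with 17.3% lower in liver and 31.3% in either direction). In lung, 5 of 7 were higher than in lymph node (14.9% of genes, 42.3% in either direction) and 4 of 7 were higher than in spleen (18% of genes, 40.8% in either direction). The median difference of the 7 RNAs between liver and lymph node was 0.64, beside -0.19 over all tested genes. With T cell scaling 6 of 7 were called higher in liver than in lymph node, beside 12.3% of all tested genes. In lung 6 of 7 were too, beside 26.5%. Against spleen 5 of 7 were called higher in each, beside 12.7% for liver and 24.5% for lung. As deposited, 1 RNA was called higher in spleen than in lung, Mir142hg.

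Among the hosts, Snhg8 had the largest of these differences, 1.15 ± 0.19 for liver (adjusted p = 0.00026) and 1.17 ± 0.19 for lung (0.000115) against lymph node. Snhg1 followed with 0.72 ± 0.10 (4.26e-05) and 0.68 ± 0.10 (3.51e-05). For Gas5 they were 0.48 ± 0.08 (0.000452) and 0.34 ± 0.08 (0.00397). Snhg12 was higher in liver by 0.64 ± 0.14 (0.00201), and its value for lung, 0.20 ± 0.14, did not pass (0.267). Against spleen, Gas5 was the weakest call: liver exceeded spleen by 0.25 ± 0.08 (0.0333), with an adjusted p of 0.147 without spleen replicate 2, 0.0956 without spleen replicate 3 and 0.138 without liver replicate 2, and above 0.05 in 8 other alternatives. The value of 0.51 ± 0.14 for Snhg12 (0.00886) was not called without spleen replicate 2 (0.0506), with library weights (0.0523) or in a fit of the 2 organs alone (0.17). Snhg8 exceeded spleen by 0.89 ± 0.19 in liver (0.00206) and 0.91 ± 0.19 in lung (0.00115), with 0.055 and 0.0524 in fits of the 2 organs alone.

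**Figure D4:**
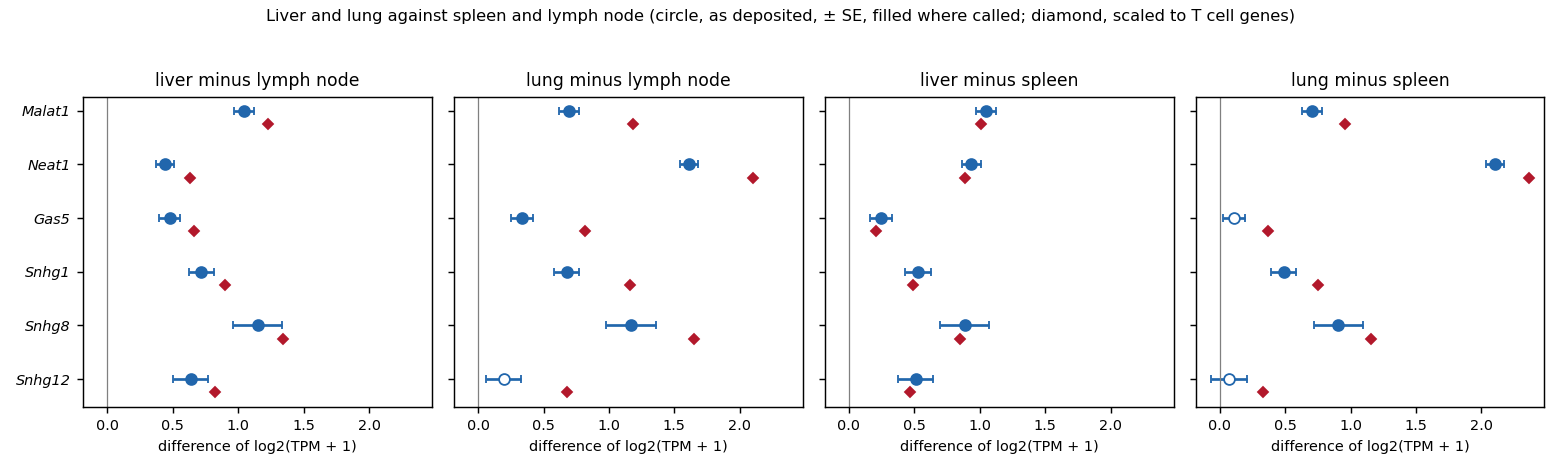
Difference of log2(TPM + 1) of 6 long noncoding RNAs, as liver or lung minus lymph node or spleen (horizontal axes). Circles with SE bars are TPM as deposited, filled where the adjusted p is under 0.05, and red diamonds are libraries scaled to 20 T cell genes. No value changes sign between the 2 scalings, and Neat1 in lung reaches 1.61 over lymph node and 2.10 over spleen.

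Genes of the immediate early and stress response moved with these organs. Their 18-gene sum was 17130 to 18610 TPM in liver and 6894 to 7403 TPM in lung, against 3447 to 3558 in spleen and 3545 to 3650 in lymph node. Of the 18, 17 were higher in liver than in lymph node and none lower, and 16 were higher and 2 lower in lung. The shares of all tested genes were 9.45% higher and 21.6% lower in liver, and 14.9% and 27.4% in lung. The heat shock gene Hspa1a averaged 1495 TPM in liver, 123.5 TPM in lung and 2.68 TPM in lymph node. Hspa1a and Hspa1b are near-identical copies, and their separate values are uncertain. Bone marrow had a high sum too (11770 to 11980 TPM), where Snhg8 did not differ from liver in the test (0.10 ± 0.19, adjusted p = 0.719) and Malat1, Gas5 and Snhg1 were lower than in liver as deposited. The part of this response in the levels of the long noncoding RNAs was not tested. Hepatocyte markers summed to at most 19.54 TPM in the liver libraries, with 2 of 8 genes at 0 in all 3. The erythroid markers given above were highest in liver. Lung epithelial markers summed to 229 to 306 TPM in lung against at most 31.36 TPM elsewhere.

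Other noncoding snoRNA hosts moved in both directions. Of 16 further hosts, 14 were matched and 13 tested. Between lymph node and liver 3 were higher in liver and 2 in lymph node, beside 9.45% and 21.6% of all tested genes. Between lymph node and lung 3 were higher in lung and 2 in lymph node, beside 14.9% and 27.4%. Their median difference, liver minus lymph node, was 0.20, beside -0.19 over all tested genes. The 3 with the widest range of organ means went different ways. Snhg15 averaged 184.6 TPM in liver, 98.57 TPM in lung and 44.71 TPM in lymph node, and exceeded lymph node by 2.02 ± 0.17 in liver (adjusted p = 2.42e-07). Snhg20 was lower in liver, at 20.32 TPM against 55.32 TPM in lymph node (adjusted p = 0.000355). Snhg10 was listed at 0 in all 3 liver libraries and its difference from lymph node was not called (0.148).

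Factors that act on the hosts were counted in the same comparisons. Of 16 proteins that bind or assemble snoRNAs, 9 were lower in liver than in lymph node and none higher, and 8 were lower in lung and 1 higher. Of all tested genes, 21.6% were lower and 9.45% higher in liver, and 27.4% lower and 14.9% higher in lung. Dkc1, the pseudouridine synthase of H/ACA snoRNPs, averaged 37.62 TPM in liver, 39.13 TPM in lung and 87.87 TPM in lymph node (adjusted p = 0.00144 for liver and 0.0017 for lung). Shq1, its assembly chaperone, averaged 2.88, 0.81 and 6.11 TPM (0.0556 and 0.00159), and Naf1, another assembly factor, 3.92, 5.27 and 9.44 TPM (0.0031 and 0.0292). With T cell scaling the split in liver was again 9 lower and none higher (12.3% of all tested genes in each direction), while that in lung became 4 lower and 3 higher (12.4% and 26.5%).

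Of 20 factors of nonsense-mediated decay, 5 were lower in liver than in lymph node and 1 higher, and 7 were lower in lung and 2 higher, shares near those of all tested genes just given. With T cell scaling these became 1 and 1 in liver and 2 and 8 in lung, so no direction held for lung under both scalings. Of all tested genes, that scaling called 12.3% lower and 12.3% higher in liver, and 12.4% lower and 26.5% higher in lung. Dhx34, a helicase of this pathway, was lower in both, at 10.09 TPM in liver and 7.39 TPM in lung against 21.3 TPM in lymph node (0.00162 and 6.67e-05). Nbas and Pnrc2, the other 2 with wide ranges, were not called in either comparison. Of 22 protein-coding genes known for a terminal oligopyrimidine tract, 9 were lower in liver than in lymph node and 3 higher, and 13 were lower in lung and 2 higher, where 21.6% and 27.4% of all tested genes were lower in liver and lung. T cell scaling turned the split to 3 and 5 in liver and to 2 and 14 in lung, beside the scaled shares of all tested genes given above. Tpt1 was higher in both organs as deposited, by 0.32 ± 0.05 in liver (0.000149) and 0.42 ± 0.05 in lung (3.57e-06), and Eif4b lower, by a called amount, in both (0.00116 and 2.31e-07).

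Mir142hg spread more between replicates than between most organs. Its level was 101, 111 and 85.9 TPM in blood, 75.8, 71.4 and 119.6 TPM in bone marrow, 60.8, 122 and 154 TPM in spleen and 53.4, 68.5 and 50.7 TPM in lymph node. In liver it was 71.4, 142 and 0 TPM, and in lung 4.13, 33.3 and 4.3 TPM. All lung libraries lay below all other libraries except liver replicate 3, which was listed at 0. The annotated spliced transcript has 269 bases.

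The F test did not call Mir142hg (adjusted p = 0.111). Blood exceeded lung by 3.35 ± 1.27 (adjusted p = 0.0439) and spleen exceeded lung by 3.43 ± 1.27 (0.0416), and both calls were lost under most alternatives. Leaving out lung replicate 1, for example, gave 2.89 (0.13) for blood. Some alternatives called pairs that the main fit did not. In fits of the 2 organs alone, blood exceeded lymph node by 0.78 (0.00329) and lymph node exceeded lung by 2.57 (0.0446). Without liver replicate 2, blood exceeded liver by 3.55 (0.0328) and spleen exceeded liver by 3.63 (0.0371). The miR-142 genes themselves, Mir142 and Mir142b, were listed at 0 TPM in all 18 libraries, so nothing here measures the mature microRNA.

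Of 11 genes reported as targets of miR-142, 5 were higher in lung than in spleen and none lower, beside 18% and 22.8% of all tested genes. Scaled to T cell genes, 7 were higher and none lower (24.5% and 15.3%). Against lymph node 4 were higher and 2 lower in lung (14.9% and 27.4%), and 8 and 1 with T cell scaling (26.5% and 12.4%). Itgav, an integrin chain, averaged 110.6 TPM in lung and 22.35 TPM in spleen (2.27 ± 0.15, adjusted p = 7.33e-09). Pde3b, a phosphodiesterase that breaks down cyclic AMP, averaged 27.18 and 4.56 TPM (2.35 ± 0.18, 3.28e-08), and Il6st, the shared receptor chain of the interleukin-6 family, 87.58 and 48.44 TPM (0.84 ± 0.08, 7.78e-07). Of 14 genes of microRNA processing, 5 were higher in spleen than in lung and 4 lower, and 3 and 6 with T cell scaling. Ago1 was higher in lymph node than in lung, at 35.8 against 10.61 TPM (1.23e-08), and Tnrc6b, a partner of the Argonaute proteins, was higher in lung at 61.26 against 37.1 TPM (0.000397). Ago4 averaged 4.03 TPM in blood and at most 1.57 TPM elsewhere.

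Of the neighbours of Mir142hg, 6 of 9 matched genes were tested. Between lymph node and lung 3 were higher in lymph node and 1 in lung as deposited, beside 27.4% and 14.9% of all tested genes. With T cell scaling these were none and 2 (12.4% and 26.5%). Between lymph node and liver they were 1 and 3 under both (21.6% and 9.45% as deposited, 12.3% each with T cell scaling). Mpo, a granule enzyme of neutrophil precursors, averaged 535.0 TPM in bone marrow and at most 6.0 TPM elsewhere, a profile apart from that of Mir142hg. Rnf43 and Tspoap1 were lowest in blood as deposited, at 6.29 and 4.47 TPM.

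Kcnq1ot1 was low in every library. It stood at 0.33, 0.37 and 0.38 TPM in blood, 0.5, 0.56 and 0.59 TPM in bone marrow, 0.4, 0.36 and 0.5 TPM in spleen, 0.67, 0.6 and 0.64 TPM in lymph node, 0.46, 0.79 and 0.7 TPM in liver and 0.56, 0.64 and 0.64 TPM in lung. Blood lay below all libraries except 1 of spleen, while the other 5 organs overlapped in part. It is annotated as 1 unspliced transcript of 93092 bases, and its TPM times length in kilobases ran from 30.72 to 73.54. The RNA also holds internal runs of A of up to 41 bases. With no filter on low values it was not called among the 6 organs (adjusted p = 0.396 over 27268 genes, of which 43.6% were called). The lymph node exceeded blood by 0.27 ± 0.14 (adjusted p = 0.199) in that fit, and with a pseudocount of 0.1 by 0.68 ± 0.38 (0.241).

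The imprinted domain that Kcnq1ot1 silences on one parental chromosome was represented by 13 genes, 10 of them tested. Between lymph node and lung 5 were higher in lymph node and 1 in lung, beside 27.4% and 14.9% of all tested genes. That 1 was Cdkn1c, an inhibitor of the cell cycle, which averaged 53.69 TPM in lung, 10.58 in bone marrow, 9.66 in liver and at most 2.74 in blood, lymph node and spleen. Lung exceeded lymph node by 3.92 ± 0.36 for Cdkn1c (adjusted p = 2.74e-07). Tspan32, a tetraspanin of blood cells, was lower in lung than in lymph node, at 65.53 against 279.7 TPM (6.44e-09), and Osbpl5, a lipid-binding protein, was too (12.62 against 21.05 TPM, 0.00878, and 0.348 with T cell scaling). Kcnq1 itself had organ means of 0 to 0.13 TPM and was not tested.

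The series set blood against each organ, and here the direction depended on the scaling in at least 1 comparison for each of Malat1, Neat1, Gas5, Snhg1, Snhg8 and Snhg12. On TPM as deposited, 6 of 7 were lower in blood than in lung (17.3% of all tested genes; 43.7% called in either direction, 26.4% higher in blood), and the seventh, Mir142hg, was higher. Of the 7, 5 were lower in blood than in liver and Neat1 was higher (16.1% lower, 23.3% higher and 39.4% in all over all tested genes). Against spleen 3 were lower and Neat1 higher (15.3%, 20.1% and 35.4%). Against bone marrow 2 were lower and Neat1 higher (18.8%, 13% and 31.8%), and against lymph node Snhg12 was lower and Neat1 higher (21%, 16.4% and 37.4%).

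Scaling each library to its 20 general T cell genes raised the blood values relative to the organs, and with them the median over all tested genes, by 0.43 for bone marrow, 0.73 for spleen, 0.91 for lymph node, 0.80 for liver and 0.54 for lung. The share of all calls that were higher in blood rose from 41% to 81.7% for bone marrow, from 56.9% to 95.4% for spleen, from 43.9% to 96.9% for lymph node, from 59.1% to 93.1% for liver and from 60.5% to 87.5% for lung. Median ratio scaling moved that share to 59.3% for bone marrow and 64.4% for lymph node, and leaving out mitochondrial, ribosomal protein and haemoglobin genes moved it to 46.3% for spleen. In the T cell scaled libraries 6 of 7 RNAs were higher in blood than in spleen or lymph node and none lower. Of all tested genes, 55.3% were higher and 2.67% lower in blood than in spleen with this scaling. The shares against lymph node were 57.6% and 1.86%.

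Neat1 kept its direction in 4 of the 5 comparisons. Blood exceeded spleen by 1.63 ± 0.07 (adjusted p = 5.44e-11), lymph node by 1.13 ± 0.07 (2.62e-09), bone marrow by 0.73 ± 0.07 (8.9e-07) and liver by 0.69 ± 0.07 (9.03e-07) as deposited, and by 2.55, 2.28, 1.28 and 1.65 with T cell scaling. Only lung turned, as given above. Snhg8 kept its called lower level in blood against bone marrow and lung: bone marrow exceeded blood by 1.09 ± 0.19 (0.000319) and lung by 1.21 ± 0.19 (6.87e-05) as deposited, and by 0.54 (0.034) and 0.55 (0.0213) with T cell scaling.

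Malat1, Gas5 and Snhg1 did not keep a called direction between blood and lung or liver. Liver exceeded blood by 0.97 ± 0.08 for Malat1 (4.22e-08) and by 0.83 ± 0.10 for Snhg1 (3.68e-06) as deposited, but by 0.01 (0.959) for Malat1 with T cell scaling, where Snhg1 was 0.12 (0.309) higher in blood. For Gas5, liver exceeded blood by 0.68 ± 0.08 (6.28e-06) as deposited, and blood exceeded liver by 0.28 (0.00656) in the scaled libraries. Snhg1 in spleen, 0.31 ± 0.10 above blood (0.0216), was also not called without spleen replicate 2 (0.104) or blood replicate 2 (0.0626). The value of Snhg12 in lymph node above blood was not called without lymph node replicate 1 or 3 or blood replicate 1 or 2 (0.0629 to 0.088), nor with median ratio scaling (0.409). That of Snhg12 in bone marrow above blood, 0.54 ± 0.14 (0.00613), was not called with median ratio scaling (0.0667) and was not called with T cell scaling (0.99).

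**Figure D5:**
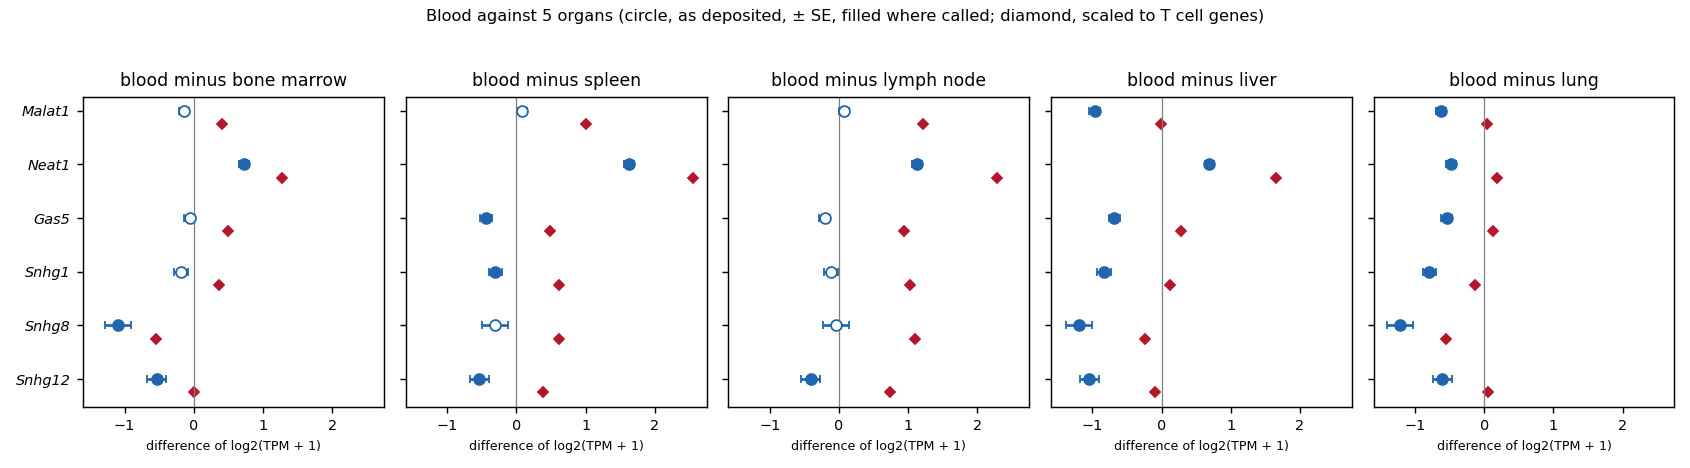
Difference of log2(TPM + 1) of 6 long noncoding RNAs, as blood minus each of 5 organs (horizontal axes). Circles with SE bars are TPM as deposited, filled where the adjusted p is under 0.05, and red diamonds are libraries scaled to 20 T cell genes. Neat1 stays above 0 in 4 panels, Snhg8 stays below 0 against bone marrow, liver and lung, and every value of Gas5 moves from below 0 to above it with that scaling.

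The remaining pairs of organs complete the description. Between spleen and lymph node 1 of 7 was called, Neat1, where 14.3% of all tested genes were; with T cell scaling 3 were, Gas5 and Snhg1 higher in spleen and Neat1 higher in lymph node (9.4%). Between bone marrow and lymph node 2 were called, Neat1 and Snhg8, both higher in bone marrow (22.5% of genes), and with T cell scaling 6 were, all higher in bone marrow (44.2%). Between bone marrow and spleen 4 were called (24.1%): Malat1, Neat1 and Snhg8 higher in bone marrow and Gas5 lower. T cell scaling also gave 4, all higher in bone marrow (41.6%). Against liver and lung, 4 RNAs each were lower in bone marrow and none higher as deposited, beside 34.5% and 43.5% of all tested genes called. Scaled to T cell genes, 2 were lower and Neat1 higher in bone marrow than in liver (49.9%), and 4 were lower and Mir142hg higher in bone marrow than in lung (46.5%). Between liver and lung 3 were called (34.9%), with Malat1 and Snhg12 higher in liver and Neat1 higher in lung, and with T cell scaling only Neat1 was called (38.1%).

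The genes most like each RNA across the 18 libraries were found by the root mean square difference of centred log2(TPM + 1), with 8375 genes compared, those averaging 10 TPM or more. A small value marks parallel levels, beside the gene's own root mean square deviation. Gas5 had the closest match of the 7 tested RNAs, Btf3, a translation factor subunit whose gene is itself on the list of terminal oligopyrimidine genes, at 0.087 beside 0.266 for Gas5 alone. Gimap8 and Hnrnpdl followed at 0.153 each. Nearest to Malat1 were Ccdc117 (0.148), Ythdc1 (0.161), a nuclear reader of methylated RNA, and Atl2 (0.172). Among the genes near to Neat1 were Furin (0.206), a protein convertase, and Tpm4 (0.217).

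Snhg1 was most like Zc3h15 (0.156), Hspa5 (0.162), the chaperone of the endoplasmic reticulum, and Srsf3 (0.166), a splicing factor. Snhg8 was most like Atf4 (0.233), the transcription factor of the amino acid and stress response, then Irf2bp2 (0.28) and Arntl (0.288), and Snhg12 was most like Klhdc4 (0.162), Unc119b (0.184) and Gimap9 (0.191). For Kcnq1ot1, Mbd2 and Mat2b (both 0.093) and Ybx1 (0.095) were nearest, but its own deviation was only 0.122 on this scale. Mir142hg had no close match: Dynlt1c, the nearest, was at 1.208. Among the RNAs themselves, Malat1 and Snhg1 (0.205), Gas5 and Snhg1 (0.213) and Gas5 and Snhg12 (0.23) were the closest pairs, while the neighbours Malat1 and Neat1 were at 0.641. All of these values share the 18 libraries and their scaling.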

How the data were processed

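Per the labels' protocols, poly(A) RNA of Treg cells was made into directional libraries. The submitters' processing notes name STAR, RSEM and mm10; versions, annotation and strand setting are not given in the sources used here. The authors deposited TPM per Ensembl gene ID to 2 decimals, which sum to about 1000000 per library, so a value is a share of the library and its depth is unknown. The members and all lists were chosen with earlier results of these data known. Symbols came from GENCODE M21 (55141 of 55487 IDs). Of 342 list genes, 5 had no match and 4 matched by a RefSeq synonym.

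Genes whose mean reached 1 TPM in some organ (16694) were fitted with limma 3.58.1 (R 4.3.3) on log2(TPM + 1), a group means model of all 18 libraries with eBayes trend and robust. P-values were adjusted by Benjamini-Hochberg over all genes per contrast, with calls under 0.05. T cell scaling divided each library by the geometric mean of TPM + 1 over 20 T cell genes. The alternatives were other pseudocounts, filters, scalings, variance settings, library weights, a replicate block, the 2 groups alone and each library left out. The fit was checked on simulated data.

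Named were all 8 RNAs, the 3 genes most like each, up to 3 genes per list with the widest range of organ means, and Foxp3, Cd3e and Cd4; 2 genes that this rule names are not reported here. Slc3a2, Gm37376, Snora24 and Kcnq1 were named after their values were seen.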

Additional observations from a re-analysis of the deposited data

How the results depend on the processing

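Of the alternatives, T cell scaling changed the most. It turned the sign of differences of blood minus organ for Gas5 (0.484 in spleen, 0.94 in lymph node, 0.491 in bone marrow, 0.276 in liver, 0.117 in lung), Snhg1 (0.611, 1.026, 0.362 and 0.122 in spleen, lymph node, bone marrow and liver), Snhg12 (0.377, 0.726, 0.008 and 0.049 in spleen, lymph node, bone marrow and lung), Snhg8 (0.61 in spleen, 1.099 in lymph node), Malat1 (0.407 in bone marrow, 0.039 in lung) and Neat1 (0.183 in lung, and 0.369 for bone marrow minus liver). Some of these were not called after T cell scaling. They were Gas5 in lung (limma, adjusted p = 0.226), Snhg1 in liver (0.309), Snhg12 in bone marrow (0.99) and lung (0.788), and Malat1 in lung (0.683), all with T cell scaling. With it, 6 of the RNAs were called against lymph node (2 as deposited), 5 against bone marrow (3), 3 against liver (6) and 3 against lung (7), and 9675, 9924 and 11134 genes of all tested were called against spleen (5912 as deposited), lymph node (6249) and liver (6580). Fitting only the 2 groups compared gave 4 RNAs and 9724 genes against lymph node. Against bone marrow it gave 5 RNAs and 8425 genes (5308 as reported). Between spleen and liver it gave 3 RNAs, against 6 as reported, where 31.3% of all tested genes were called. The share of all genes in that fit was not counted. Library weights gave 10167 genes against lymph node and 8930 against bone marrow. Leaving out 1 library gave 1 to 2 RNAs against lymph node, with 1 called without lymph node replicate 1 or 3 or blood replicate 1 or 2. In each of these fits the number of all tested genes called stayed within 1.5 times 6249. With T cell scaling, 41% of all tested genes were called against bone marrow and 59.6% against lung. The cause of these changes was not tested. No other alternative reversed a called difference.

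The labels do not say whether the replicate numbers pair the libraries. Over 45 same-numbered pairs the correlation of deviations ran from -0.034 to 0.03. Its median was 0.007, beside -0.002 for pairs of different numbers, and 9 of 18 libraries were closest to their own number. With 3 libraries per organ, such values cannot tell whether libraries of the same number came from the same animals. With the replicate block, 6 RNAs differed among organs, where 68% of all tested genes did in the main fit. In blood 4, 2, 3, 6 and 7 were called against spleen, lymph node, marrow, liver and lung in turn. The main fit called 35.4%, 37.4%, 31.8%, 39.4% and 43.7% of all tested genes there. With the block these numbers of genes stayed within 1.5 times. In all, 1 single call was lost (Gas5, spleen versus liver, adjusted p = 0.0507). Over all alternatives, 248 of 266 counts stayed within 1.5 times. TPM gives no depth, so the precision of low values such as those of Kcnq1ot1 cannot be stated.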

Other observations

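Other long noncoding RNAs were read from a list of 31, of which 28 were matched and 21 tested. Against blood, 8 were lower and 2 higher in liver, beside 23.3% and 16.1% of all tested genes, and 7 were lower and 5 higher in lung, beside 26.4% and 17.3%. With T cell scaling, 12 were lower and 1 higher in liver (62.1% and 4.59% of all tested genes) and 13 lower and 2 higher in lung (52.2% and 7.42%). Mir22hg, the host gene of miR-22, averaged 18.16 TPM in blood, 15.28 in liver and 9.89 in lung, against 2.13 in spleen and 1.58 in lymph node, and liver exceeded lymph node by 2.63 ± 0.30 (limma, adjusted p = 9.36e-06). Lncpint, a p53-induced RNA, averaged 33.37 TPM in liver and 20.09 in lung against 9.61 in lymph node and 6.25 in spleen, and liver exceeded lymph node by 1.69 ± 0.16 (adjusted p = 1.36e-06). Both differences were called with T cell scaling as well (6.25e-06 and 5.73e-07). Hotairm1, an RNA of the HoxA cluster, averaged 6.71 TPM in blood and 28.35 ± 49.1 (SD) in liver and was listed at 0 in all libraries of spleen and lung, with no called difference between blood and any organ (smallest adjusted p = 0.0742).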
